A study of Mus musculus with 6 samples.

Results

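The small heat shock protein genes Hspb1, Hspb2, Hspb3, Hspb6, Hspb7 and Hspb8, and Bag3, the co-chaperone gene that works with them, were followed in mouse hearts. These 7 genes were chosen by name, and all 7 had a row among the 49585 genes of the deposited heart RNA-seq table. Male mice housed at lunar gravity were compared with ground control mice, and the question was how cardiac RNA levels differed. The lunar gravity mice, 8 or 9 weeks old, were aboard the International Space Station, where a centrifuge (31 rpm, radius 15 cm) gave 0.167 g. The ground controls, also males of 8 or 9 weeks, were C57BL/6 J mice at 1 g, with 6 mice per mission. Each group had 3 libraries, called PG1 to PG3 (lunar gravity, which the labels call partial gravity) and GC1 to GC3 (ground control).

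No strain is named for the lunar gravity mice, and no mission is given for any library. Nothing in the labels says that each library came from its own mouse. The p-values therefore measure only how these libraries spread, and that spread may be technical. A 1 g group in flight was not analysed here, and gravity therefore cannot be told apart from other differences between the station and the ground. The header of the deposited comparison places GC3 under PG, although its title calls it a ground control. The title was followed here, and values under the header's grouping stand beside the results that depend on it.

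Small heat shock proteins hold unfolding proteins in a soluble state without using ATP, and they share a conserved alpha-crystallin domain. In heart muscle they sit on the Z-disc, desmin filaments, actin and titin, and several are induced or phosphorylated under stress. BAG3 ties the small heat shock protein HSPB8 to HSP70, and the complex hands damaged filamin and other Z-disc proteins to autophagy, a route called chaperone-assisted selective autophagy. Mutations in the human genes BAG3, HSPB8 and the related CRYAB cause myopathies.

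Hspb6 was lower in lunar gravity hearts than in ground control hearts, by 1.28-fold, and was the 1 gene of these 7 that passed the test, against 3.77% of all genes tested. Differences of the other 6 genes stayed within 0.33 on the log2 scale, 4 of them lower and 2 higher in lunar gravity. The median log2 fold change of the 7 genes was -0.071, against 0.00067 over all genes tested. Among all 12258 genes tested, 462 were called at an adjusted p under 0.05, with 2.21% lower and 1.56% higher, and 15.6% had an unadjusted p under 0.05. Of those 462 genes, 41.3% were higher in lunar gravity. When counts were scaled by library totals alone, 481 genes were called and 59.9% of them were higher. Levels below are CPM, exon read counts scaled to a common library size by TMM. Unless another tool is named, each adjusted p comes from the quasi-likelihood test of edgeR, adjusted over all genes. A negative log2 fold change means lower in lunar gravity.

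Promoters were read because heat shock factors bind repeats of nGAAn, and the 7 genes include heat-inducible ones. Sequences are from RefSeq (GRCm38.p6), 250 bases before to 50 bases after each start. Of the 7 genes 6 had an entry, and Hspb6 had 2 starts. The motif GAANNTTC, which reads the same on both strands, was in 7.86% of 32851 promoters, and its other phase TTCNNGAA, which may overlap it, was in 8.52%. The 250 bases before the Hspb1 start (chr5:135887669-135887918, plus strand) held GAANNTTC at 2 places, shown in capitals:

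Hspb1: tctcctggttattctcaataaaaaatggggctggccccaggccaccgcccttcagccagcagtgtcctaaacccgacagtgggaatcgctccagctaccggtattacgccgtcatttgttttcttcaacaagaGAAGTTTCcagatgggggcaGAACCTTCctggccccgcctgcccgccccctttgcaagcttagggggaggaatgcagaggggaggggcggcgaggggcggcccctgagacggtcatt

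The motif was also in 1 place each for Hspb6, Hspb8, Bag3 and Hspb3. Windows of 30 bases, read 5′ to 3′ on the strand of the gene with the motif in capitals, show the same 8 letters in 4 genes. The second start of Hspb6 is the one shown:

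Hspb1, chr5:135887791-135887820, plus strand: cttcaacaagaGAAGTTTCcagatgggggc

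Hspb6, chr7:30553170-30553199, plus strand: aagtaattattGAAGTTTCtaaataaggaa

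Hspb8, chr5:116422844-116422873, minus strand: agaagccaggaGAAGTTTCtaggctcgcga

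Bag3, chr7:128523603-128523632, plus strand: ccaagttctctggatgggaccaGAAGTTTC

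Hspb3, chr13:113663882-113663911, minus strand: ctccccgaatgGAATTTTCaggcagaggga

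With the start as base 1 and no base 0, the first base of the motif lay at -117 in Hspb1, at -120 in Hspb6 and at -224 in Hspb3. In Hspb8 it lay at 3 and in Bag3 at 43, inside the transcript. The letters GAAGTTTC, singled out after they were seen, were on either strand of 1.21% of all promoters. The windows of Hspb7 and of the first Hspb6 start held neither form, and TTCNNGAA was in none of the windows read. The Hspb6 motif lies before the second start but within the annotated span of the gene. The gene called lower, Hspb6, and 4 genes not called shared the motif, and a match in letters is a description, not a site in use.

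Hspb6 (ENSMUSG00000036854, chr7:30552178-30555443, plus strand, 9 exons) encodes a small heat shock protein abundant in cardiac and smooth muscle, which is phosphorylated by protein kinase A during beta-adrenergic stimulation. Its level was 426, 480.3 and 444 CPM in PG1 to PG3, against 581, 575 and 573 CPM in GC1 to GC3. All lunar gravity libraries lay below all ground control libraries. The mean was 450.0 ± 27.7 CPM in lunar gravity and 576 ± 4.22 CPM in ground control (SD, n = 3 each). The log2 fold change was -0.36 (SE 0.054, 95% interval -0.47 to -0.25), with an adjusted p of 2.46e-04. Groups that do not overlap were found for 1 of the 7 genes, and for 20.6% of all genes tested. Ground control libraries were closer to each other than lunar gravity libraries, with a coefficient of variation of 6.15% in lunar gravity and 0.733% in ground control.

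The Hspb6 difference kept its direction and its call when any 1 library was left out, with log2 fold changes from -0.40 to -0.32 and adjusted p-values from 3.21e-04 to 0.0088. Without GC3 it was -0.36, with an adjusted p of 0.0017. Under the header's grouping, with GC3 among the lunar gravity libraries, it was -0.27 with an adjusted p of 0.39, and the call was lost. In that grouping 0 of the 7 genes and 0.256% of all genes were called. Counting only reads that cross exon junctions gave 31.8, 31.8 and 33.8 CPM in PG1 to PG3, against 42.3, 41.5 and 37.5 CPM in GC1 to GC3, again without overlap. Their log2 fold change was -0.33 (SE 0.089), with an adjusted p of 0.035 among 8956 genes, of which 2.30% were called. All exon reads of Hspb6 were placed uniquely in all libraries.

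In whole heart RNA, fewer cells of a type and less RNA per cell cannot be told apart. The summed CPM of 7 cardiomyocyte markers was 46465 to 50789.9 in lunar gravity and 55556 to 56879.6 in ground control. Of those 7 markers, 2 were called lower (Myh6 and Ryr2) and none higher, and under the header's grouping neither was called (adjusted p 0.51 and 0.61). The 5 smooth muscle markers summed to 266 to 316 CPM in lunar gravity and 321 to 333 CPM in ground control, with Acta2 and Smtn called lower and Tagln higher. Under the header's grouping these calls were lost, with adjusted p-values of 0.48 for Acta2, 0.38 for Smtn and 0.44 for Tagln. Acta2 also lost its call when PG1, PG2, GC1, GC2 or GC3 was left out (adjusted p 0.061 to 0.13), and Tagln without PG3 (0.068) or GC1 (0.058). Calls on junction reads were lost for all 3 genes, and with DESeq2 without independent filtering for Tagln (0.063). Both sums were lower in lunar gravity, as Hspb6 was, but single markers of both lists went either way. A sum of CPM is weighted to the most abundant marker. In the cardiomyocyte sum that was Myh6, with a mean of 24907 CPM in lunar gravity and 31826 CPM in ground control. The median log2 fold change of the cardiomyocyte markers was -0.018 (range -0.35 to 0.089). That of the smooth muscle markers was 0.11 (range -0.35 to 0.45). The part of these markers in the Hspb6 difference was not tested. Skeletal muscle markers were close to 0, with at most 1.10 CPM in sum over 6 genes, and Myh1, Myh2 and Myh4 at 0 reads in all 6 libraries.

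Hspb1 (ENSMUSG00000004951, chr5:135887919-135889563, plus strand) encodes the stress-inducible small heat shock protein that binds actin filaments and is phosphorylated by the p38 and MAPKAPK2 kinases. Its level was 101, 105 and 101 CPM in PG1 to PG3, against 140.0, 116 and 92.6 CPM in GC1 to GC3. The lunar gravity libraries were nearly level and lay inside the range of the ground controls. The mean was 102 ± 2.51 CPM in lunar gravity and 116 ± 23.7 CPM in ground control (SD, n = 3 each). The log2 fold change of -0.18 (SE 0.14, 95% interval -0.50 to 0.14) did not pass the test, with an adjusted p of 0.63.

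The Hspb1 value turned on which ground control was used. Without GC3 the log2 fold change was -0.32 with an adjusted p of 0.022, which is past the threshold, in a comparison where 3.10% of genes were called. Without GC1 it was -0.023 with an adjusted p of 0.94. Under the header's grouping it was -0.35 with an adjusted p of 0.084. In the authors' deposited table, which sets GC1 and GC2 against the other 4 libraries, Hspb1 had a signed fold change of -1.28 with a p-value of 4.36e-04 and an adjusted p of 0.137. Only 44.5% to 48.4% of the Hspb1 exon reads were placed uniquely, and the rest were placed at more than 1 position, so its level is uncertain.

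**Figure D1:**
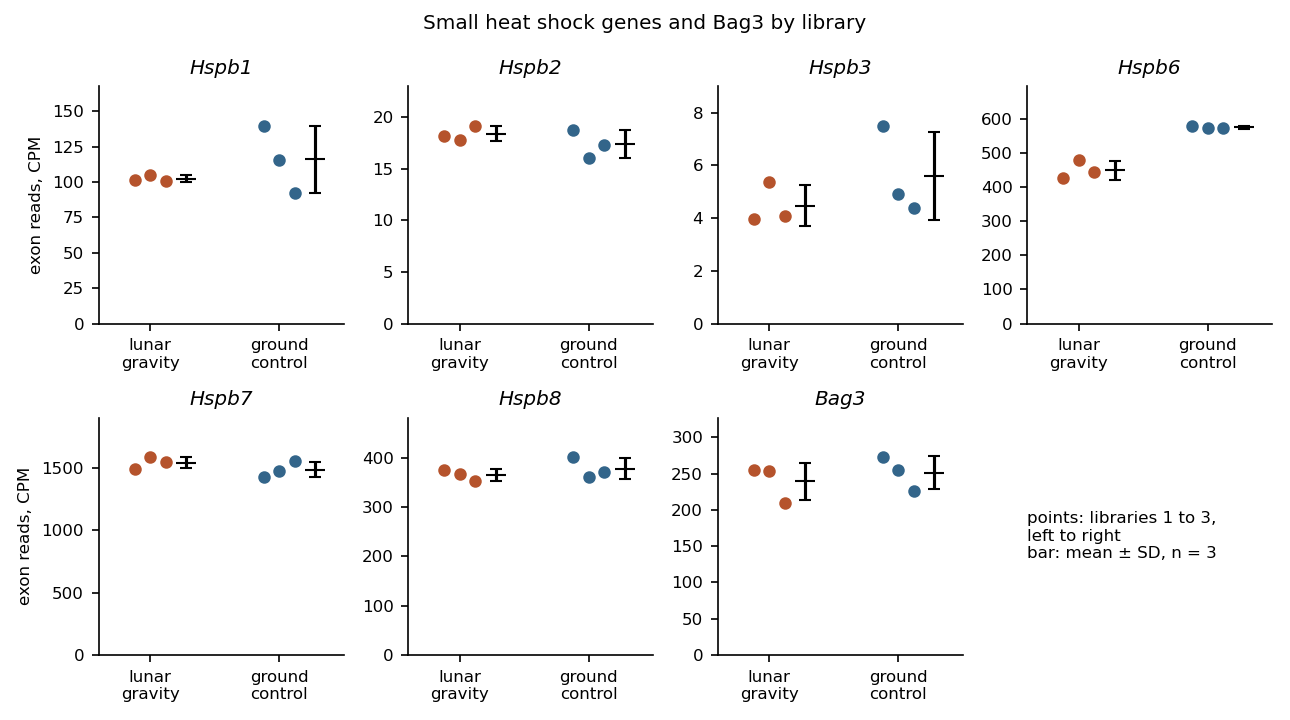
Exon read level in CPM (TMM-scaled) of each of the 7 genes, one point per library and a bar for mean ± SD (n = 3), with lunar gravity left of ground control. Hspb6 is the gene whose groups do not overlap (426 to 480.3 CPM in lunar gravity, 573 to 581 CPM in ground control), while the ground control points of Hspb1 run from 92.6 to 140.0 CPM around the lunar gravity points.

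Hspb7 (ENSMUSG00000006221, chr4:141420779-141425311, plus strand) encodes the cardiovascular small heat shock protein, needed for thin filament assembly in mouse hearts. Its level was 1490.4, 1584 and 1545 CPM in PG1 to PG3, against 1425, 1475 and 1549 CPM in GC1 to GC3. The groups overlapped through GC3. Means were 1539.8 ± 47.0 CPM in lunar gravity and 1483 ± 62.4 CPM in ground control (SD, n = 3 each), and the log2 fold change was 0.054 (SE 0.051, adjusted p 0.70). Its 95% interval of -0.052 to 0.16 leaves out the size of the Hspb6 difference in either direction.

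Hspb2 (ENSMUSG00000038086, chr9:50751078-50752354, minus strand) and Hspb3 (ENSMUSG00000051456, chr13:113662896-113663676, minus strand, 1 exon) encode muscle small heat shock proteins that form a complex with each other. Hspb2 had 18.2, 17.8 and 19.2 CPM in PG1 to PG3, against 18.8, 16.1 and 17.3 CPM in GC1 to GC3. Hspb3 had 3.97, 5.37 and 4.08 CPM in PG1 to PG3, against 7.51, 4.94 and 4.39 CPM in GC1 to GC3. In both genes the groups overlapped, and the highest Hspb3 value was that of GC1. The log2 fold change of Hspb2 was 0.087 (SE 0.12, 95% interval -0.16 to 0.33, adjusted p 0.80). That of Hspb3 was -0.33 (SE 0.24, 95% interval -0.81 to 0.16, adjusted p 0.56). Hspb3 rested on 30 to 48 reads per library, and a difference as large as that of Hspb6 was not detectable for it at this depth.

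Hspb2 lies head to head with Cryab, the alpha-B-crystallin gene, on the opposite strand, and the 2 annotated genes overlap by 1030 bases. Between 62.5% and 73.6% of the Hspb2 exon reads were placed uniquely. Whether strand was used in counting is not given in the sources used here, so reads of the overlap could belong to either gene. Cryab had 848, 892 and 880 CPM in PG1 to PG3, against 945, 907 and 891 CPM in GC1 to GC3. The groups overlapped at PG2 and GC3, and the log2 fold change was -0.066 (SE 0.050, adjusted p 0.59).

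Hspb8 (ENSMUSG00000041548, chr5:116408491-116422864, minus strand) encodes the BAG3-bound small heat shock protein. Its level was 376, 367 and 352 CPM in PG1 to PG3, against 401, 362 and 370.2 CPM in GC1 to GC3. Bag3 (ENSMUSG00000030847, chr7:128523616-128546981, plus strand) had 255, 254 and 210 CPM in PG1 to PG3, against 273, 255 and 226 CPM in GC1 to GC3. For both genes the groups overlapped. Bag3 was lowest in PG3 among the lunar gravity libraries and in GC3 among the ground controls.

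The log2 fold change of Hspb8 was -0.050 (SE 0.055, 95% interval -0.16 to 0.064, adjusted p 0.75). That of Bag3 was -0.071 (SE 0.082, 95% interval -0.25 to 0.10, adjusted p 0.76), and without PG3 it was 0.017. The intervals of both leave out the Hspb6 value of -0.36. The level of Hspb8 per unit of Bag3, as a ratio of RPKM values, was 1.94, 1.90 and 2.21 in PG1 to PG3, against 1.93, 1.86 and 2.15 in GC1 to GC3. The ratio spread as widely within each group as between them.

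**Figure D2:**
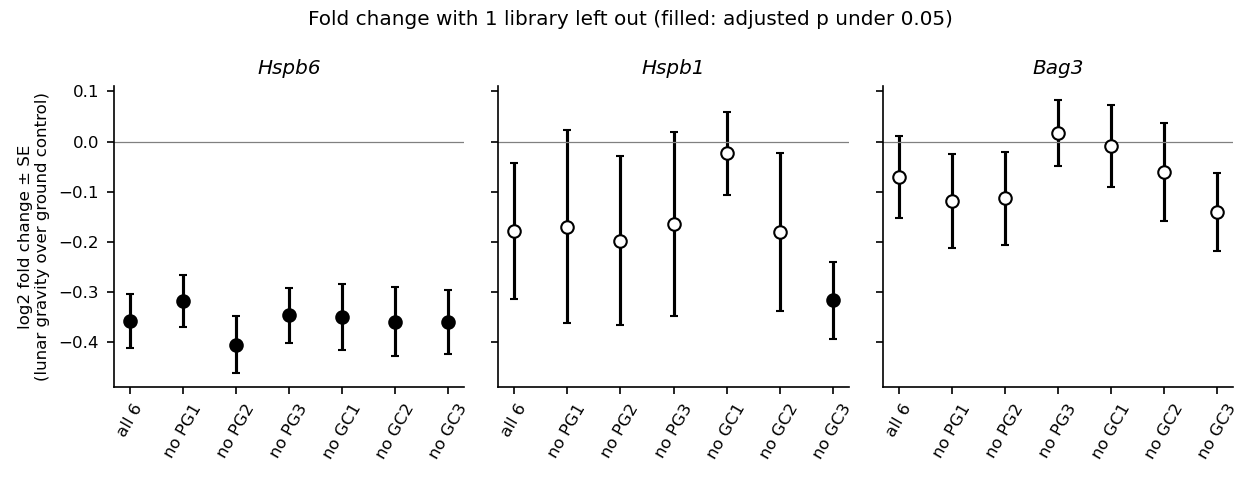
Log2 fold change ± SE of Hspb6, Hspb1 and Bag3 with all 6 libraries and with each library left out, filled where the adjusted p was under 0.05. Hspb6 stays between -0.40 and -0.32 and filled throughout, Hspb1 is filled only without GC3 and is -0.023 without GC1, and Bag3 crosses 0 without PG3.

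Levels were compared between genes per length, as RPKM, the deposited level scaled for exon length and library size, averaged over all 6 libraries. Hspb7 was highest at 259.5 ± 18.6 RPKM, followed by Hspb6 at 106 ± 10.2 and Hspb8 at 90.5 ± 4.69 RPKM (SD, n = 6). Hspb1 had 77.3 ± 10.5 RPKM, Bag3 45.5 ± 4.54, Hspb2 15.1 ± 1.84 and Hspb3 3.06 ± 0.745 RPKM. The mean of Hspb7 was 2.46 times that of Hspb6, and Hspb7 was the higher in all 6 libraries. The mean of Hspb2 was 4.95 times that of Hspb3, with Hspb2 higher in all 6 libraries. By library that ratio ran from 3.18 in GC1 to 7.05 in PG3. The ranges of Hspb6 and Hspb8 overlapped, as did those of Hspb8 and Hspb1, so these neighbours in the order were not separated beyond their spread. The RPKM of Hspb1 and of Hspb2 counts reads placed at more than 1 position. On unique exon reads alone, scaled for length and library size, the mean of Bag3 was above that of Hspb1. On that scale the means of Hspb2 and Hspb3 were 21.8 and 6.53, a smaller ratio than in RPKM. Reads in the overlap of Hspb2 with Cryab could belong to either gene, so the level of Hspb2 is uncertain.

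Hspb6 and Hspb8 were close in lunar gravity and apart in ground control. Hspb6 had 92.2, 103 and 95.1 RPKM in PG1 to PG3, against 116, 115 and 111 RPKM in GC1 to GC3. Hspb8 had 95.9, 93.2 and 89.0 RPKM in PG1 to PG3, against 94.3, 85.7 and 84.7 RPKM in GC1 to GC3. PG1 was the library in which Hspb8 exceeded Hspb6. The ratio of Hspb7 to Hspb6 was 2.90, 2.74 and 2.89 in PG1 to PG3, against 2.04, 2.13 and 2.24 in GC1 to GC3, without overlap between the groups. Hspb6, already called lower, is part of both comparisons, so they restate its difference and are not further results. How many other gene pairs have ratios without overlap was not computed.

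**Figure D3:**
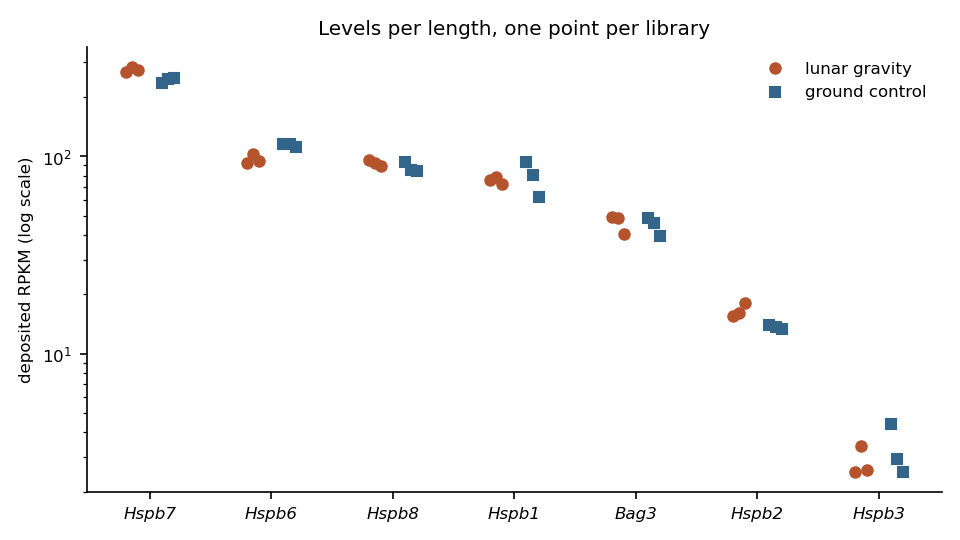
Deposited RPKM (log axis) of the 7 genes in order of their mean, one point per library, lunar gravity left of ground control. Hspb7 (mean 259.5 RPKM) and Hspb3 (3.06 RPKM) mark the ends of the order, and the points of Hspb6, Hspb8 and Hspb1 lie close together.

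RPKM values of the tested genes were shifted as a whole, with a median log2 ratio of 0.12, lunar gravity over ground control. On that scale Hspb6 was at -0.24 with all lunar gravity libraries below all ground controls. Hspb7 at 0.18 and Hspb2 at 0.28 had all lunar gravity libraries above all ground controls, an order that was not present in CPM. In RPKM 31.0% of all genes tested did not overlap between the groups, and 27.5% did so with lunar gravity higher, so these orders are read relative to the shift.

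Intron reads give a view of unspliced RNA and were fitted apart from exon reads. Of the 7 genes, 5 had enough intron reads to test, and edgeR called 0 of them, while 1 (Hspb1) had an unadjusted p under 0.05 and DESeq2 without independent filtering also called 0. Over all 12776 genes tested on intron reads, 2.56% were called, and 13.7% had an unadjusted p under 0.05. Scaling intron reads by the exon libraries moved the median of all genes by -0.14 on the log2 scale, so intron values are read relative to the other introns. Hspb2 with 0 to 2 and Hspb3 with 1 to 4 intron reads per library were too low to test. Hspb3 is annotated with 1 exon over its whole span, so its few intron reads are not a view of its unspliced RNA.

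Hspb1 had 44, 23 and 14 intron reads in PG1 to PG3, against 9, 14 and 18 in GC1 to GC3. PG3 and GC3 were on opposite sides of the other libraries of their group, and the groups overlapped. The log2 fold change was 0.91 (SE 0.38, 95% interval 0.096 to 1.72), with an unadjusted p of 0.031 and an adjusted p of 0.30. Without PG1 the value was 0.45. Within the ground controls, GC1 had the most Hspb1 exon reads and the fewest Hspb1 intron reads.

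Hspb6 intron reads numbered 22, 25 and 21 in PG1 to PG3, against 31, 23 and 16 in GC1 to GC3. The groups overlapped, and the log2 fold change of -0.11 (SE 0.30, 95% interval -0.74 to 0.53, adjusted p 0.92) became 0.20 without GC1. Its interval holds both 0 and the exon value of -0.36, so at this depth the introns do not tell these apart. Bag3 was the gene richest in intron reads, with 617, 557 and 596 in PG1 to PG3, against 698, 568 and 622 in GC1 to GC3. They made up 23.1% to 28.7% of its gene reads, against at most 9.24% in the other 6 genes. The intron log2 fold change was -0.16 for Bag3 (adjusted p 0.56), -0.099 for Hspb8 (adjusted p 0.76) and -0.13 for Hspb7 (adjusted p 0.87).

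**Figure D4:**
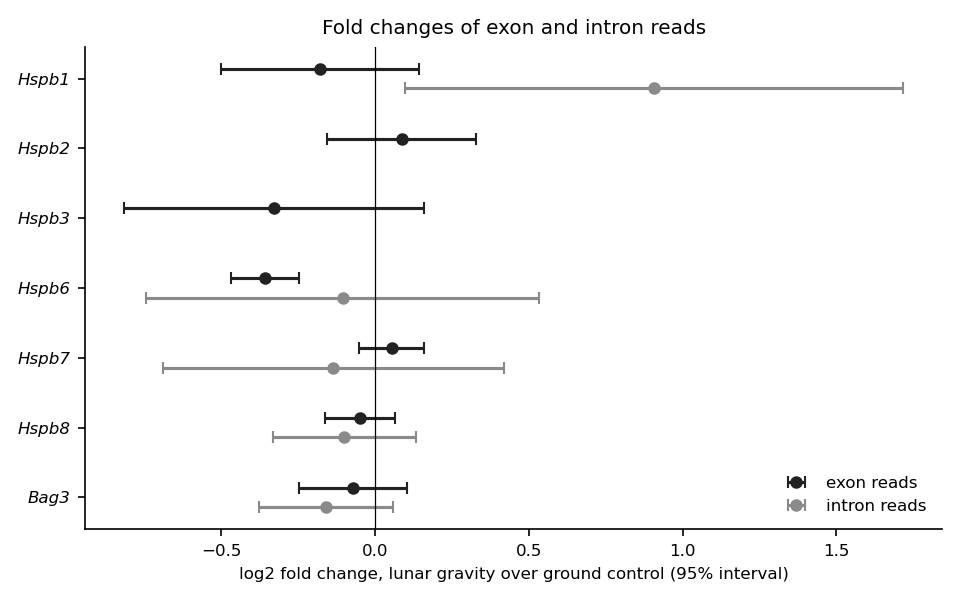
Log2 fold change, lunar gravity over ground control, with its 95% interval for exon reads (black) and intron reads (grey). The exon interval of Hspb6 (-0.47 to -0.25) lies below 0, and the intron interval of Hspb1 (0.096 to 1.72) lies above 0 before adjustment for the number of genes.

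Other genes of the same systems were counted from lists chosen by function, with earlier results of these data known. Partners of BAG3 in chaperone-assisted selective autophagy had 1 gene called higher and 2 lower among 13 tested, with a median log2 fold change of -0.051. Flnc, the filamin C gene and a client of that route, had 657, 676 and 658 CPM in PG1 to PG3, against 908, 861 and 847 CPM in GC1 to GC3. It was 1.31-fold lower without overlap (log2 fold change -0.39, SE 0.051, adjusted p 4.13e-05). Synpo2, whose protein binds the WW domain of BAG3, was lower at -0.25 (SE 0.057, adjusted p 0.012). Synpo2 lost the call without GC1 (0.077) or GC2 (0.098), and on junction reads (0.25). Map1lc3b, an LC3 gene of the autophagosome, was higher, with 53.9 ± 1.25 CPM in lunar gravity and 41.6 ± 0.471 CPM in ground control (SD, n = 3 each; log2 fold change 0.38, adjusted p 0.0050).

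Under the header's grouping none of these partners was called, with adjusted p-values of 0.26 for Flnc, 0.33 for Synpo2 and 0.36 for Map1lc3b. Only 13.9% of the Map1lc3b exon reads were unique, and on unique reads its adjusted p was 0.090. The HSP70 gene Hspa8, the E3 ligase gene Stub1 and the autophagy receptor gene Sqstm1 did not pass the test, with log2 fold changes of -0.065, -0.063 and 0.13. The other 5 BAG family genes had 0 calls by edgeR, 1 unadjusted p under 0.05 (Bag1, log2 fold change 0.13, adjusted p 0.29) and 0 calls by DESeq2. Of 5 other small heat shock genes 2 could be tested, Cryab and Hspb11, and edgeR called 0, while DESeq2 called 0 and no unadjusted p was under 0.05. Cryaa and Odf1 had 0 reads in all 6 libraries.

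The cytoskeletal genes whose proteins small heat shock proteins and BAG3 are known to bind had 6 genes called lower and none higher among 12 tested. Their median log2 fold change was -0.11, and over all genes 2.21% were called lower. Because the list was chosen with earlier results of these data known, its count is a description and not a test. Actc1, cardiac actin, was at -0.78 (adjusted p 0.0011) and Ttn, titin, at -0.60 (adjusted p 1.17e-06), each without overlap. Without PG3 Actc1 was at -0.79 and its adjusted p was 0.069. Of the Actc1 exon reads 71.1% were unique, and of the Ttn exon reads 61.7%. Flnc belongs to this list as well, and the other genes called, named after their values were seen, were Myot (-0.33, adjusted p 0.0089), Vim (-0.22, adjusted p 0.048) and Ldb3 (-0.20, adjusted p 0.045). Of 21 alternatives, the call was lost in 3 for Myot, in 17 for Vim and in 13 for Ldb3, with Myot losing it without GC2 (adjusted p 0.067). Des, the desmin gene, was at 0.15 with an adjusted p of 0.11, and Actn2, alpha-actinin, at -0.030 with an adjusted p of 0.85. Without PG3, 1 gene was called higher and 3 lower, and with scaling by library totals 1 was higher and 4 lower. The number called lower was 3 without GC2, 3 on junction reads, 5 without GC3, and 0 under the header's grouping, with none higher in these 4 fits.

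Among 18 tested heat shock factors and heat shock response genes, 1 was called lower (Fkbp4, an HSP90 co-chaperone) and none higher, with a median of -0.066. Fkbp4 was at -0.24 (adjusted p 0.014) and lost the call without PG2 (0.070), GC1 (0.13) or GC2 (0.093), with scaling by library totals (0.052) and under the header's grouping (0.25). Hsf1, the main heat shock factor, was at -0.0078 with an adjusted p of 0.99. Of the 7 kinases that act on small heat shock proteins edgeR called 0, while 3 had an unadjusted p under 0.05, DESeq2 called 0, and scaling by library totals called 1 higher. The kinase with the smallest p was Mapk14, p38 alpha, at -0.19 (adjusted p 0.16). Prkaca, the catalytic subunit of protein kinase A, was at -0.058 (adjusted p 0.71).

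**Figure D5:**
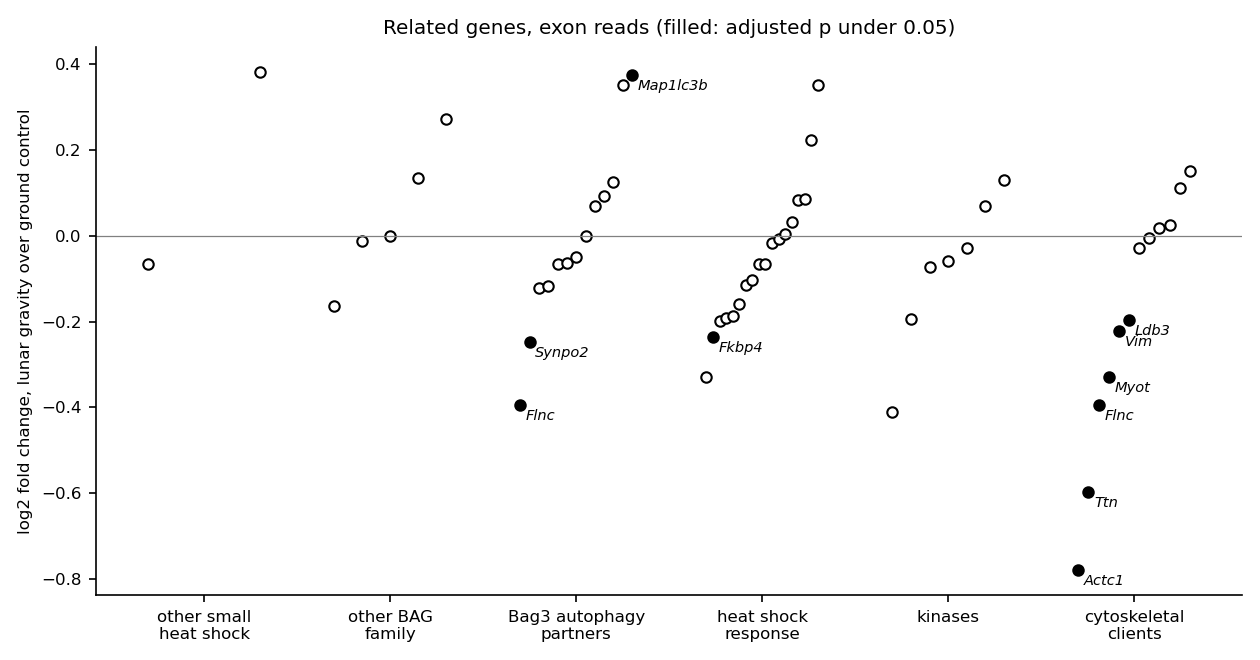
Log2 fold change, lunar gravity over ground control, of each tested gene in 6 lists of related genes, filled where the adjusted p was under 0.05. The filled points of the cytoskeletal list (6 of 12) all lie below 0, and the lists of other small heat shock genes, other BAG genes and kinases have none filled.

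The ground control libraries differed among themselves in the heat shock response. Hspa8 had 642, 667 and 636 CPM in PG1 to PG3, against 804, 666 and 565 CPM in GC1 to GC3. Only 17.6% of the Hspa8 exon reads were unique, so its level is uncertain. Hsph1, an HSP110 gene, had 59.9, 57.0 and 63.0 CPM in PG1 to PG3, against 88.9, 76.6 and 60.9 CPM in GC1 to GC3. In both, as in Hspb1, GC1 was the highest and GC3 the lowest ground control, and lunar gravity libraries were close together. Among the 18 heat shock response genes, 13 were highest in GC1 and lowest in GC3 of the ground controls, and among the 7 genes 4 were (Hspb1, Hspb3, Hspb6 and Bag3). Over all genes tested this held for 19.7%. In Hspb6 the ground controls were nearly level (581, 575 and 573 CPM), and Hspb3 rested on 30 to 48 reads per library, so their order carries little weight. The pattern was looked for after these values were seen, and it describes single libraries. Its part in the comparison of the groups was not tested.

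Genes that overlap Hspb6 on the opposite strand are Proser3 (122 bases) and Lin37 (3 bases). Neither passed the test, with log2 fold changes of -0.12 (adjusted p 0.90) for Proser3 and -0.085 (adjusted p 0.91) for Lin37. Over the 6 libraries and 8415 genes of at least 10 CPM, the genes whose log2 level was most like the mean of the 7 genes were Ppp4r1, Fnta and Fars2, each with a Pearson r of 0.98. Those most like Bag3 were Abcb6 (0.99), Mafk (0.99) and Ubn1 (0.97). None of these 6 genes passed the test, and with 6 libraries that include both groups these values are a description.

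In the authors' deposited table, with its grouping of 2 against 4 libraries, Hspb6 had a signed fold change of -1.20 with a p-value of 0.0180 and an adjusted p of 1. In the authors' deposited table Hspb3 had -1.39 with a p-value of 0.0458 and an adjusted p of 1. Hspb7 and Bag3 had 1.06 and -1.12 in the authors' deposited table, with p-values of 0.143 and 0.102.

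Total counts were 6461213 to 8271553 per library, and mitochondrially encoded genes took 16.3% to 18.3% of them. Markers of other heart cells were present in all libraries. The 5 fibroblast markers summed to 1069 to 1190.4 CPM in lunar gravity and 1223 to 1257 CPM in ground control, with Col1a1 and Col3a1 called lower. Under the header's grouping neither was called (adjusted p 0.42 and 0.50). Col1a1 also lost its call without PG2 (0.083), GC1 (0.053) or GC2 (0.11), and on junction reads. Of the other fibroblast markers, Dcn and Pdgfra were higher in lunar gravity (log2 fold change 0.10 and 0.092) and Lum lower (-0.053), none of them called. The 5 endothelial markers (1002 to 1159 CPM in lunar gravity, 1102 to 1147 CPM in ground control) had 0 called by edgeR and 1 unadjusted p under 0.05. The 5 macrophage markers (149 to 177 CPM in lunar gravity, 171 to 184 CPM in ground control) likewise had 0 called and 1 unadjusted p under 0.05, and by the same test the 5 red cell markers (586 to 986 CPM in lunar gravity, 599.8 to 872 CPM in ground control) had 0 and 0. DESeq2 called 0 in these 3 lists. Between replicates the chi-square per gene was 2.10 to 5.79, above the level of counting error, and each library was counted once.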

How the data were processed

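RNA of hearts was depleted of ribosomal RNA and sequenced, per the labels' protocols. The authors deposited 1 table of 49585 genes, and the submitters' processing notes name the build GRCm38 (mm10). Not given in the sources used here are whether strand was used, the annotation release, the aligner and the counter. The table has expression values, read counts over exons, junctions and introns, and RPKM values, per the file headers. The expression values that the authors deposited are whole read counts, equal in all 49585 genes to unique exon plus multi-mapped junction reads. The authors' comparison gives p-values, adjusted p-values and a signed fold change, a score, per the file headers. Per-library columns not used numbered 74. Other deposited columns, such as coordinates and exon length, were used as given, with starts counted from 1.

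Counts were filtered with filterByExpr (minimum count 10), scaled by TMM, and fitted in R 4.3.3 with edgeR 4.0.16 (robust quasi-likelihood), with Benjamini-Hochberg adjustment over all genes tested. The biological coefficient of variation was 6.20%. RPKM was used for levels between genes, untested. Alternatives used DESeq2 1.42.0 and limma 3.58.1 (voom), other scalings, filters, read columns and groupings, a replicate block, and each library left out, and the fit on junction reads was added after seeing the data. The members and gene lists were chosen with earlier results of these data known. Named genes are the members, Cryab, up to 3 called genes of each list by p (or the smallest p), annotated neighbours within 2000 bases, and the 3 genes most like the members' mean and Bag3. Others are named for their role or after their values were seen.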

Additional observations from a re-analysis of the deposited data

How the results depend on the processing

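Direction and side of the threshold were kept in 684 of 766 gene values under the alternatives, with 71 losing a call, 1 gaining one and 10 changing sign. Of the 7 genes, the count called on exon reads was 0 under the header's grouping and 1 to 2 with 1 library left out, and 1 otherwise. The count over all genes (462) was 765 with no filter, 307 and 286 with DESeq2 with and without independent filtering, 32 (0.256%) under the header's grouping, 206 with junction reads, and 219 to 463 with 1 library left out. On intron reads (327) it was 805 with exon library sizes, 735 with no filter and 134 to 506 with 1 library left out, and 0 of the 7 genes in each. With 1 library left out, log2 fold changes crossed 0 for Bag3 (-0.14 to 0.017), Proser3 (-0.49 to 0.045), Lin37 (-0.24 to 0.054), Mafk (-0.16 to 0.053) and the introns of Hspb6 (-0.34 to 0.20) and Hspb7 (-0.36 to 0.090), and Lin37 was at 0.10 under the header's grouping. The cause was not tested. The header's grouping places GC3, a ground control by its title, with the lunar gravity libraries. Whether the title or the header is right is not known.

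Deviations of same-numbered libraries from their group means had correlations of 0.032, -0.067 and 0.051 over 8421 genes. Those of different-numbered libraries ran from -0.11 to 0.090. With 3 libraries a group the deviations sum to 0 within each group, so these values cannot show whether the numbers pair the libraries. With the replicate number as a block, 545 genes were called on exon reads and 354 on intron reads, with 1 and 0 of the 7 genes, and Hspb6 was at -0.36 (adjusted p 1.54e-04). With 3 libraries a group, Hspb3 (30 to 48 reads) and introns other than those of Bag3, Hspb7 and Hspb8 are limited by depth. DESeq2 with independent filtering gave no adjusted p to Hspb2 and Hspb3.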
